A study of Drosophila melanogaster with 3 samples.

Results

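The weak promoter regions were 4485 of the 15592 regions (28.8%) in the pooled list of a chromatin immunoprecipitation and sequencing (ChIP-seq) experiment on the protein of CG3838, the gene now called brickwall (brwl), in Drosophila melanogaster. A region was a member when it was absent from the thresholded list by chromosome, start, end and summit, and when its summit lay no more than 500 bp from an annotated start site of transcription (TSS). The thresholded list holds 2239 pooled regions, kept by the authors as the optimal set under the irreproducible discovery rate (IDR), which measures how well replicates rank the same regions. These were also the 2239 regions of highest pooled signal, so the members were selected on that signal, and their signal is described here without a test. In all, 13353 pooled regions were weak in this sense, and 8868 of them lay away from promoters. The class set beside the members throughout is that of the 1272 thresholded promoter peaks.

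The embryos came from a transgenic line that stably expressed CG3838 carrying green fluorescent protein (GFP) at its C-terminal end, and every library of the series carries this tag. The labels state immunoprecipitation with an antibody to GFP, although their antibody field names CG3838, and they do not state what drives the tagged gene. Whole embryos of both sexes, 0 to 24 h old, were pooled, and their chromatin was sonicated to fragments of 200 to 800 bp. There were 3 biological replicates, all of 1 group. Embryos of that age range hold many stages and tissues, so a region bound in few cells and one bound weakly in many cannot be told apart. No library from embryos without the tag was analysed here. The lists give no read counts, and the depth of the libraries is unknown.

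A promoter is the stretch of DNA around a TSS where RNA polymerase II and its general factors assemble. Fly promoters are often sorted by short sequence elements. The DNA replication-related element (DRE), recognised by the factor DREF, and Motif 1, recognised by M1BP, mark many housekeeping genes, whereas the TATA box and the downstream promoter element (DPE) are commoner at regulated genes. GAGA repeats are bound by the GAGA factor, the product of Trl, and the E-box is the site of basic helix-loop-helix proteins. Many fly genes also lie head to head, so that 1 short interval serves a pair of divergent promoters. In ChIP-seq, a peak caller ranks regions by enrichment, and IDR analysis starts from a long list that includes background on purpose.

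Sequences reaching 50 bp to each side of a summit are printed to show what the elements named below look like in individual regions. For each of 5 elements, the weak promoter region of highest signal that held it within 50 bp of its summit, and that overlapped no annotated exon, is shown, with thresholded peaks for DRE and Motif 1 beside them. All are on the plus strand of dm6, 5′ to 3′, and capitals mark the matched letters, which may be on either strand. A match is a description of the letters and not evidence of a binding site.
CG31122, weak, DRE, chr3R:18412991-18413091: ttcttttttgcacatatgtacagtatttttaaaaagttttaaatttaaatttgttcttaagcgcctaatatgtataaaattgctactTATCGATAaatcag
fzr, weak, Motif 1, chrX:4679833-4679933: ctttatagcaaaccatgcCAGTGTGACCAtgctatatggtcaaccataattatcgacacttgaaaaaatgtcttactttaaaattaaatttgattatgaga
CG7029, weak, E-box, chr3R:22754103-22754203: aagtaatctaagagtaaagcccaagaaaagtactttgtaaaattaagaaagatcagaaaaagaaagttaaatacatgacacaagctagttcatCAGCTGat
CG31808, weak, GAGA, chr2L:16716465-16716565: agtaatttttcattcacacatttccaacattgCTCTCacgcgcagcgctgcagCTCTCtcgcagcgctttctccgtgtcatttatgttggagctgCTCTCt
Ssadh, weak, TATA box, chr3R:25627062-25627162: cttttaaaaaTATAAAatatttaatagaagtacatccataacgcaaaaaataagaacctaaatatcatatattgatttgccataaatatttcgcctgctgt
lncRNA:CR43496, thresholded, DRE, chrX:6759522-6759622: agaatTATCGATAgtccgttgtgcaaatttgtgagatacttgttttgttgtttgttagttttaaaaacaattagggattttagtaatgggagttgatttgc
EndoA, thresholded, Motif 1, chr3R:18906486-18906586: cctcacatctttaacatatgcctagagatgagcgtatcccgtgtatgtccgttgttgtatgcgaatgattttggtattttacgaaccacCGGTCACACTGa

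The DRE region of CG31122 had a pooled signal of 102.3 and a summit at -167 bp from the TSS, and it ranked 2373, 1920 and 2563 in replicates 1, 2 and 3. The thresholded DRE peak near lncRNA:CR43496, which is shared with the gene sov, had a signal of 323.5 and ranks of 161, 162 and 450. The 8 letters are the same in both, while the thresholded peak ranked above the weak region in each replicate. The classes were split by pooled signal, so this order follows the selection, as does that of the Motif 1 pair. The Motif 1 region of fzr, which encodes an activator of the anaphase-promoting complex, had a signal of 85.3 and ranks of 3331, 7212 and 2886, against 126.7 and 2116, 1383 and 1267 for the peak of EndoA, a gene of synaptic vesicle recycling. The GAGA region near CG31808 held 3 matches that do not overlap each other, all on the minus strand, and matches that overlap these are not in capitals. The TATA match of Ssadh, which encodes succinic semialdehyde dehydrogenase, lies in an upstream region whose summit is at -188 bp from the TSS.

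The pooled signal of the weak promoter regions ran from 40.2 to 103.5, with a median of 54.9 and quartiles of 46.03 and 69.4. Thresholded promoter peaks ran from 103.5 to 1796, with a median of 152.6. Signal is the authors' own value for each region, and its scale is not described. The deposited −log10 q value had a median of 0.272 among the members and did not exceed 2.33, so most members were not past a q value of 0.05. A q value of 0.05 or less was reached by 469 members (10.5%), all of them among pooled ranks 2240 to 4478, and by all 1272 thresholded promoter peaks. Of the weak regions elsewhere, 5.10% reached it. All but 2 of the members, 4483, had the same width of 424 bp.

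Regions on either side of the threshold differed little in signal. The lowest thresholded promoter peaks were those of MFS16, a transporter of the major facilitator family (103.6), toc (103.6) and rgn (103.5). The highest members were those of Hsdl2, Tlk, which encodes the Tousled-like kinase, and SMC5, a subunit of a chromosome maintenance complex, followed by ebd2, all at 103.5. The ranks of the MFS16 peak in replicates 1, 2 and 3 were 1118, 2555 and 2026. Those of the rgn peak were 2624, 3538 and 2745, and those of the Tlk region 2807, 2363 and 2174. The rgn peak therefore ranked below the Tlk region in replicates 2 and 3, and above it in replicate 1. The next members in order were snoRNA:Or-CD13, the Golgi protein gene Sys1 and CG31808 at 103.4, then the calnexin gene Cnx99A, kmr and the tumour suppressor gene Mer at 103.3, and the poly(A) polymerase gene hrg and Ssadh at 103.2.

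These top members differed in how evenly the replicates held them. The Hsdl2 region ranked 9542, 2963 and 1939 in replicates 1, 2 and 3, with replicate signals of 17.96, 35.9 and 39.7. The Sys1 region ranked 20868, 2354 and 1161, with signals of 13.7, 40.5 and 50.9. Both were low in replicate 1 alone. The kmr region ranked 1001, 2463 and 2794, so it was highest in replicate 1, and the SMC5 region ranked 3574, 2074 and 2685. At the other end, the 5 lowest members, all at 40.2, were those of Mnr, Agpat1, an acyltransferase gene, Hey and dysf, which encode basic helix-loop-helix factors, and lncRNA:CR43417. The Agpat1 region was found in replicate 3 alone, at rank 6889. Hey had none in replicate 1 and ranks of 4160 and 11264 in replicates 2 and 3.

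Replicate support differed between the classes, which the choice of the thresholded list by IDR entails. A pooled region counted as supported when it overlapped, by at least 1 bp, a region among the strongest 15592 of a replicate's own list, which is the length of the pooled list. Of the weak promoter regions, 1652 were supported by all 3 replicates (36.8%, Clopper-Pearson interval 35.4% to 38.3%). The figure was 98.6% for thresholded promoter peaks (1254 of 1272) and 21.9% for weak regions elsewhere. No replicate supported 126 of the members (2.81%), against 0 thresholded promoter peaks and 6.06% of the weak regions elsewhere. Intervals here cover counting error only. The replicates were pooled to make the list, and thresholded peaks were kept for their agreement between replicates. These shares therefore describe the lists and were not tested.

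**Figure D1:**
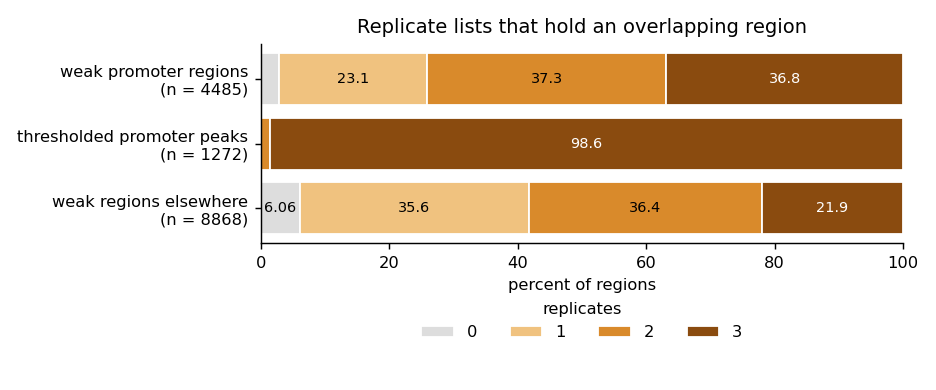
Stacked bars give the percent of regions of each class, on the horizontal axis, that overlapped a region among the strongest 15592 of 0, 1, 2 or 3 replicates' own lists. The bar of weak promoter regions is spread over 1 (23.1%), 2 (37.3%) and 3 replicates (36.8%), while nearly the whole bar of thresholded promoter peaks (98.6%) stands for 3.

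Replicate 1 supported the fewest members. It held 60.4% of them, replicate 2 held 75.2% and replicate 3 held 72.6%, a mean of 69.4% ± 7.85 (SD, n = 3). For thresholded promoter peaks the mean was 99.5% ± 0.343, and for weak regions elsewhere 58.1% ± 3.49. The lists so used covered 4.44%, 4.51% and 4.75% of the chromosome arms. Among members supported by a pair of replicates only, replicates 2 and 3 formed the commonest pair, with 18.5% of all members, followed by 1 and 2 with 10.6% and 1 and 3 with 8.18%. Without replicate 1, both others held 55.4% of the members, without replicate 2 45.0%, and without replicate 3 47.4%.

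Members were lower in the replicates' lists, which their selection on pooled signal entails. Their median ranks in replicates 1, 2 and 3 were 7014, 6468 and 5395, over the members found there, against 1050, 1103 and 993 for thresholded promoter peaks. Summits were less fixed for the members than for thresholded peaks. The median distance from the pooled summit to the replicate's summit was 48, 37 and 52 bp, against 20, 14 and 22 bp. Spearman's rho of replicate signals across members was 0.400 between replicates 1 and 2, 0.308 between 1 and 3, and 0.341 between 2 and 3. Across thresholded promoter peaks it was 0.719, 0.538 and 0.511. These are correlations across regions, which are not independent of each other, and the members span a narrower range of signal by selection.

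A small group of members lay close beside a thresholded summit. The summit was within 500 bp of one for 285 members (6.35%), at a distance of 199 to 447 bp with a median of 203 bp, and 255 of them were 190 to 230 bp away. A thresholded interval was overlapped by 284 members. A replicate region under the neighbouring peak then counts as support for the weak region too, and 282 of the 285 (98.9%) were supported by all 3 replicates. The remaining 4200 members were supported by all 3 in 32.6% of cases, with 57.8%, 73.5% and 70.7% in replicates 1, 2 and 3, a mean of 67.3% ± 8.38 (SD, n = 3). Members near a thresholded summit had a median signal of 61.5, against 54.5 for the rest.

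With the replicate lists cut to their strongest 2239 regions, 160 members (3.57%) were found in all 3, and 159 of these were of the group beside a thresholded summit. Examples are the regions of CG31808 (signal 103.4, ranks 87, 173 and 97, 203 bp from the thresholded summit) and of CG6565 and Bdp1, the latter a gene of RNA polymerase III transcription (102.0, ranks 96, 129 and 168, 209 bp). The others named by the same rule were Dh31-R, a neuropeptide receptor gene (102.3), l(2)k01209 (101.2), the kinase gene fray (100.6), the prophenoloxidase gene PPO3 (99.95), CG12643 (99.8), jigr1 (99.8), RapGAP1 (99.4), lncRNA:CR43334 (98.9), the Toll adaptor gene Myd88 (98.5) and Sugb (97.4). Their replicate ranks are those of the neighbouring peak where the intervals overlap. The exception among the 160 lay at -279 bp from a TSS of pum, which encodes the translational repressor Pumilio, on 3R at 9227119. Its signal was 55.2, its replicate ranks were 953, 1292 and 1800, and the nearest thresholded summit was 2124 bp away. A second weak summit of pum, at 9226865 with a signal of 102.8, overlapped replicate regions of ranks 953, 1292 and 6727, so the pair shared regions of replicates 1 and 2.

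Summits of the members were spread more evenly around the TSS than those of thresholded peaks. Their median position was -43 bp, with quartiles of -174 and 89 bp, against -102 bp with quartiles of -187 and -19.8 bp. A summit upstream of its nearest TSS was seen for 60.2% of the members (interval 58.8% to 61.6%) and for 79.0% of thresholded promoter peaks (76.7% to 81.2%). The commonest 50 bp bin of the members was that from -50 to 0, with 11.95%, and that of thresholded peaks was from -100 to -50, with 17.4%. Within 100 bp of the TSS lay 38.2% and 40.3%.

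**Figure D2:**
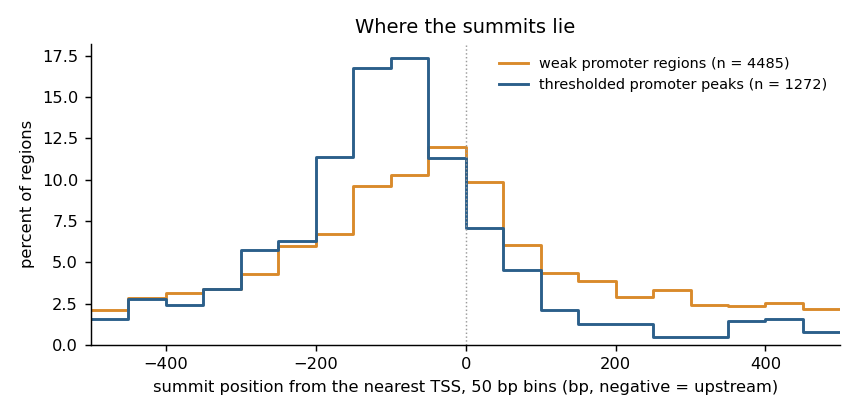
Lines give the percent of summits in each 50 bp bin of position relative to the nearest TSS, negative values being upstream, for the 4485 weak promoter regions and the 1272 thresholded promoter peaks. The thresholded line peaks at 17.4% between -100 and -50 bp and is low after the TSS, while the weak line peaks at 11.95% just before the TSS and keeps a longer downstream tail.

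The same contrast was tested inside each replicate's own list, between promoter regions among its strongest 2239 and those ranked below that down to 15592. The rule used the distance to a TSS, up to 500 bp, but not the side of the TSS, divergence or sequence. These lists are not independent of the pooled list. The upstream share was higher in the strong regions by 19.8, 21.7 and 21.1 percentage points in replicates 1, 2 and 3, a mean of 20.9 ± 0.970 (SD, n = 3), higher in 3 of 3. The exact sign-flip permutation test over replicates, two-sided, gave p = 0.25, which is the smallest p that 3 replicates allow, so no difference of this kind could pass 0.05. Against only the 2239 ranks next below the strong regions the difference was 13.3 points. The difference in the share within 100 bp of the TSS was 2.24 ± 3.49 points, with 1 replicate the other way. The rule used this distance, so that difference is given as a description only.

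Members were less often at divergent promoters. A protein-coding gene was counted as divergent when a TSS of a gene transcribed away from it lay within 1000 bp. Such a gene was within the window of 42.1% of the members (interval 40.7% to 43.6%) and of 54.6% of thresholded promoter peaks (51.9% to 57.4%). In the replicates' own lists strong regions were higher by 14.4, 9.53 and 15.4 points, a mean of 13.1 ± 3.12 (exact sign-flip test, p = 0.25, higher in 3 of 3). Against only the 2239 ranks next below the strong regions the difference was 5.86 points. Windows with TSSs of 2 or more genes made up 28.8% of members and 43.7% of thresholded peaks, a replicate difference of 14.8 ± 1.30 points. The first TSS of a gene was within the window for 80.5% and 83.3%, a difference of 1.56 ± 0.731 points. A summit between divergent TSSs is upstream of both, so the upstream and divergent shares are not separate observations.

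**Figure D3:**
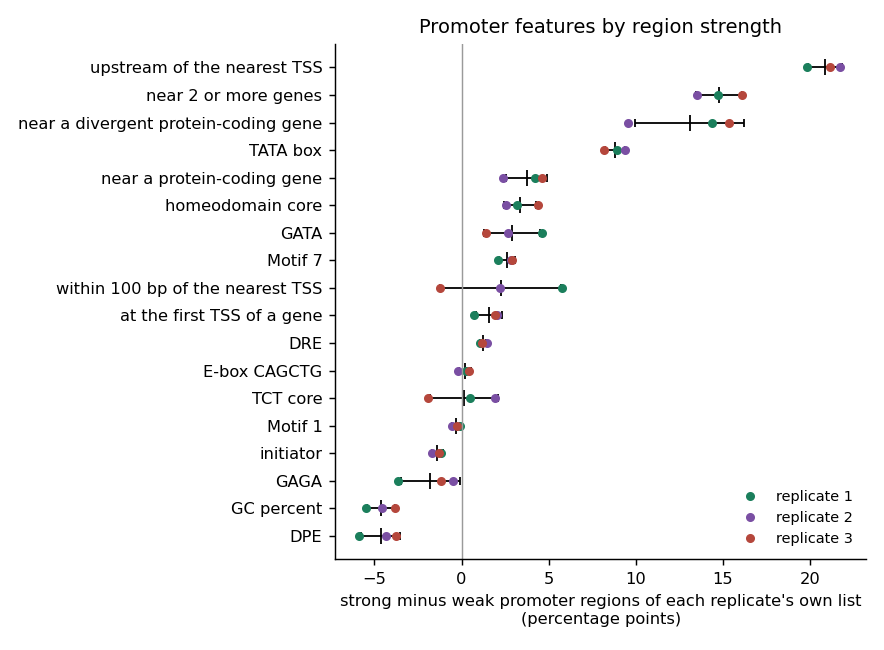
Points give, for each replicate, the percent of strong promoter regions of its own list with a feature minus that of its weak promoter regions, in percentage points, with the mean as a tick and the SD as a bar (n = 3). GC content is the difference of mean GC percent. Position and divergence lie far to the right (20.9 points for upstream summits), the DPE core (-4.64) and GC (-4.62) to the left, and the E-box CAGCTG (0.175) near 0.

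Base composition within 100 bp of the summits differed between the classes. Mean GC content was 40.6% at weak promoter regions, 36.2% at thresholded promoter peaks and 42.3% at weak regions elsewhere. Windows centred 100 bp upstream of the first TSS of the 8624 protein-coding genes without any pooled region had 39.0%. In the replicates' own lists strong minus weak regions gave -5.48, -4.55 and -3.83 points, a mean of -4.62 ± 0.827 (exact sign-flip test, p = 0.25, lower in 3 of 3). It was -2.93 against only the 2239 ranks next below, and -2.72 with windows of 200 bp to each side. Motif shares below are not adjusted for this, and the part of base composition in them was not tested.

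The DRE core TATCGATA, searched on both strands, was found in 246 weak promoter regions (5.48%, interval 4.84% to 6.19%) and in 85 thresholded promoter peaks (6.68%, 5.37% to 8.20%). It was in 0.395% of weak regions elsewhere, in 5.09% of promoters without a pooled region and in 7.37% of all 13968 protein-coding promoter windows. The promoter windows were placed by the TSS and not by a summit, so members and these windows are not compared like with like. Among the windows placed by the TSS, those of genes without a pooled region held DRE less often than all of them together. Strong regions were above weak ones by 1.08, 1.45 and 1.20 points in the replicates, a mean of 1.24 ± 0.189 (exact sign-flip test, p = 0.25). The direction turned to -0.951 when only the 2239 ranks next below the strong regions counted as weak, and the difference was 0.0411 with windows of 50 bp to each side and 2.20 with 200 bp. Motif 1 was in 2.39% of members, 1.97% of thresholded peaks, 0.0338% of weak regions elsewhere and 1.93% of all promoter windows, with a replicate difference of -0.299 ± 0.229 points.

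Other elements differed in direction. The TATA box, searched as TATAAA on both strands, was in 29.0% of members, 37.7% of thresholded peaks and 37.0% of all promoter windows, a replicate difference of 8.82 ± 0.585 points. Motif 7 was in 6.49%, 9.59% and 5.86% (2.59 ± 0.446), and the homeodomain core TAATTA in 13.5%, 15.5% and 15.4% (3.37 ± 0.925). Each of these was commoner in strong than in weak regions in 3 of 3 replicates. The DPE core AGACG went the other way, with 16.3% of members, 11.8% of thresholded peaks and 14.04% of all windows (-4.64 ± 1.10), as did GAGAG with 24.4%, 22.8% and 22.1% (-1.78 ± 1.67). The E-box CAGCTG was in 11.7%, 11.4% and 11.6%, with a difference of 0.175 ± 0.348 that changed sign between replicates. The exact sign-flip p of these was 0.25, except 0.5 for the E-box CAGCTG.

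The GATA core GATAA was in 39.1% of members and 42.7% of thresholded peaks, and was commoner in strong regions in 3 of 3 replicates (2.90 ± 1.61 points). The initiator core TCAGT was in 31.3% and 31.5%, but rarer in strong regions in 3 of 3 replicates (-1.39 ± 0.297), as was CACGTG, in 2.63% and 2.67% (-0.527 ± 0.125). The exact sign-flip p of these was 0.25. The TCT core CTTTC, a part of the initiator of ribosomal protein genes, was in 35.3% and 35.9%. The Stat92E site TTCNNNGAA was in 5.26% and 4.56%, the longer E-box variant in 6.22% and 6.53%, and Motif 6 in 1.14% and 1.34%. In all promoter windows the shares were 44.1% for GATAA, 33.6% for TCAGT, 2.23% for CACGTG, 36.4% for CTTTC, 6.09% for the Stat92E site, 6.34% for the E-box variant and 1.83% for Motif 6. The Ttk site GGTCCTGC was in 6 members and 1 thresholded peak, and in 0.186% of all promoter windows. CAGCTG is contained in the longer E-box variant, and a DRE followed by A also matches GATAA, so these shares are not separate.

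Within the weak list the promoter share, support and architecture changed gradually with rank. The pooled list was split into 7 bins of 2239 ranks, the last holding 2158, the first being the thresholded list. Summits at promoters made up 56.8%, 48.1%, 40.4%, 34.1%, 28.2%, 25.8% and 24.7% of the bins. In the replicates' own lists the first 2 bins gave 56.5% ± 3.21 and 44.8% ± 5.81 and the last 23.4% ± 3.88 (SD, n = 3). Support of promoter regions by all 3 replicates was 98.6% in the first bin, 76.3% in the second, 44.2% in the third and 11.8% in the last. Without members near a thresholded summit the second to last bins gave 73.8%, 40.3%, 21.6%, 14.3%, 5.88% and 7.31%. The second bin, with signals of 70.3 to 103.5, was thus nearer in this share to the first bin than to the third. The pooled signal comes from these same replicates, and the first bin was kept by IDR. A decline of support with rank is therefore entailed and was not tested.

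Architecture followed the same order. Near a divergent gene lay 48.7% of promoter regions in the second bin and 32.9% in the last. Upstream summits made up 70.0% of promoter regions in the second bin and 52.6% in the last, and GC content was 38.4% and 42.7%. DRE was highest in the second bin, at 7.25% (interval 5.77% to 8.96%), against 6.68% in the first and 4.19% to 6.19% in the third to last bins. The replicates' own lists gave 7.08% ± 0.414 in the second bin and 6.13% ± 0.494 in the first, higher in the second bin in 3 of 3. Bins were cut from signal, so the declines of signal and of support along them are no finding.

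Most members lay at protein-coding genes. The nearest TSS was that of a protein-coding gene for 4025 members (89.7%), of a non-coding RNA for 359, of a tRNA for 62, of a snoRNA for 24, of a pseudogene for 9 and of an snRNA for 6. Any protein-coding TSS was within 500 bp for 91.3% of members and 94.5% of thresholded promoter peaks. On the small, largely heterochromatic chromosome 4 lay 47 members (1.05%, interval 0.771% to 1.39%) and 4 thresholded promoter peaks (0.314%), against 0.573% of protein-coding genes. The share of the weak regions there was above that of the strong ones in each replicate's list, with 0.561% against 0.323%, 0.901% against 0.414% and 1.43% against 0.149%. The X held 15.6% of members and 13.7% of thresholded peaks, and 15.7% of protein-coding genes. No member lay on the Y.

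The members added many genes to those reached by thresholded peaks. A weak region and no thresholded peak was within 500 bp of a TSS of 3719 of 13968 protein-coding genes (26.6%, interval 25.9% to 27.4%). Thresholded promoter peaks reached 1625 (11.6%), of which 547 also had a weak region, so that 5344 genes (38.3%) had a pooled region of either kind. The replicates' own lists, split in the same way, gave 20.7%, 25.8% and 26.5% of genes with weak regions only, a mean of 24.3% ± 3.13 (SD, n = 3). Among the 4309 genes of other kinds, 596 had weak regions only (13.8%). Of the 3719 genes, 1360 (36.6%) were reached through regions supported by all 3 replicates and 99 (2.66%) by none, against 98.6% and 0 for genes with a thresholded peak.

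Divergent genes had weak regions more often than others, also where no thresholded peak was present. Of the 5527 divergent protein-coding genes 36.4% had weak regions only, against 20.2% of the 8441 others. Among genes without a thresholded peak the shares were 45.9% of 4383 and 21.4% of 7960. In the replicates' own lists this difference was 15.5, 22.4 and 23.1 points, a mean of 20.4 ± 4.20 (exact sign-flip test, p = 0.25, higher in 3 of 3). A region between head-to-head genes counts for both, so their share is raised by the way of counting. Several weak summits at 1 gene were uncommon, with 3486 genes having 1 and 645 having 2. The most were at Svil, a supervillin gene with 16 TSSs (8 summits), SNF4Agamma, the gamma subunit gene of AMP-activated kinase (6), and spi, which encodes an EGF receptor ligand, PAN3 and Pde8 (5 each).

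Gene groups were described by the number of their genes with a weak region only, beside the 26.6% of all protein-coding genes, and by the median signal of those regions, beside 57.9 for all such genes. No set test was made, and genes of a group are not replicates. A region counts for each gene with a TSS within 500 bp, so the TSS nearest to its summit may be that of another gene. This was so, for example, for the regions named below for RpL34a, mRpL11, COX6B, COX5B, AspRS, Prosalpha6, Nup153, MED31, mxc and Pex3. Genes of cytoplasmic ribosomal proteins, the protein parts of the ribosome, had no pooled region at 5 of 38 for the small subunit and 9 of 50 for the large one. Of the small subunit genes, 20 had a weak region only (52.6%, interval 35.8% to 69.0%) and 13 a thresholded peak, so that 86.8% had either. Of the large subunit genes, 11 had a weak region only (22.0%) and 30 a thresholded peak, 82.0% in all. In replicates 1, 2 and 3 the small subunit genes with weak regions only numbered 16, 18 and 21, and the large subunit genes 12, 10 and 17. The medians of signal were 71.0 and 68.6.

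Single ribosomal protein regions shifted in rank between replicates. The RpS27A region, at a gene whose product is made as a fusion with ubiquitin, had a pooled signal of 102.6 and ranked 651, 5546 and 4899 in replicates 1, 2 and 3. That of RpS5a (91.2) ranked 3146, 983 and 9110. The RpL39 region (102.2) ranked 22182, 1228 and 2986, and that of RpL34a (100.3) ranked 2549, 2315 and 2516. The first of these was high in replicate 1, the second in replicate 2, and only RpL34a was even. Also named were RpS29 (93.4), RpL23 (101.2) and RpL9 (85.0).

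Other groups of basic cell function had weak regions only at 33.3% to 53.8% of their genes in the pooled list. Divergent genes made up from 22 of 44 translation initiation factors to 33 of 37 splicing factors, against 5527 of 13968 protein-coding genes. Weak regions only were at 36.4% of all divergent genes and 20.2% of the others. Shares of gene groups are not adjusted for this, and its part in them was not tested. Among 73 mitochondrial ribosomal protein genes 29 had a weak region only (39.7%) and 15 a thresholded peak, with mRpS16 (101.9) and mRpL11 (97.3) highest. Of 84 genes of oxidative phosphorylation 31 had one (36.9%) and 8 a thresholded peak, with the cytochrome c oxidase genes COX6B (98.1) and COX5B (95.5). In replicates 1, 2 and 3 weak regions only were at 23, 23 and 37 oxidative phosphorylation genes. For mitochondrial ribosomal protein genes the counts were 23, 24 and 30. Splicing factors had 19 of 37 (51.4%) and 6 thresholded, with SC35 (97.2) and noi (95.8), and genes of replication and the cell cycle 28 of 52 (53.8%) and 7, with the spindle checkpoint genes Bub3 (97.5) and BubR1 (92.4). These last counts were 10, 19 and 14 in the replicates' lists for splicing factors and 18, 20 and 32 for the cell cycle. The Bub3 and BubR1 regions had no counterpart in replicate 1, and the SC35 region ranked 6630, 18744 and 696. Counts of weak regions only were 16 of 44 for translation initiation factors, 11 of 33 for aminoacyl-tRNA synthetases, 13 of 38 for the proteasome, 8 of 20 for nucleoporins, 13 of 39 for TFIID and Mediator and 9 of 20 for autophagy genes. In replicates 1, 2 and 3 these counts were 14, 20 and 15, then 8, 12 and 13, then 7, 9 and 11, then 3, 11 and 6, then 9, 15 and 13, and last 3, 8 and 7. The proteasome mean, 23.7% ± 5.26, was near the 24.3% of all protein-coding genes in these lists, and the counts of nucleoporins and autophagy genes were low in replicate 1. Highest among them were eIF4E1 (84.5), AspRS (97.7), Prosalpha6 (87.3), Nup153 (93.1), MED31 (96.6) and Atg8a (103.0).

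A pair of small groups had more thresholded peaks than weak regions in the pooled list. Of 19 genes of GPI anchor synthesis, 10 had a thresholded peak and 2 a weak region only, PIG-N and PIG-H, the latter at 41.1. Of 13 peroxisome assembly genes, 6 had a thresholded peak and 4 a weak region only, with Pex3 at 82.0. In the replicates' own lists weak regions only were at 5, 3 and 2 genes of GPI anchor synthesis and strong ones at 7, 10 and 10, so the order held in 3 of 3. For peroxisome assembly the counts were 4, 5 and 6 weak only and 5, 5 and 4 strong, so the order held in replicate 1 alone. The interval on the share for GPI anchor synthesis, 10.5%, runs from 1.30% to 33.1%.

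**Figure D4:**
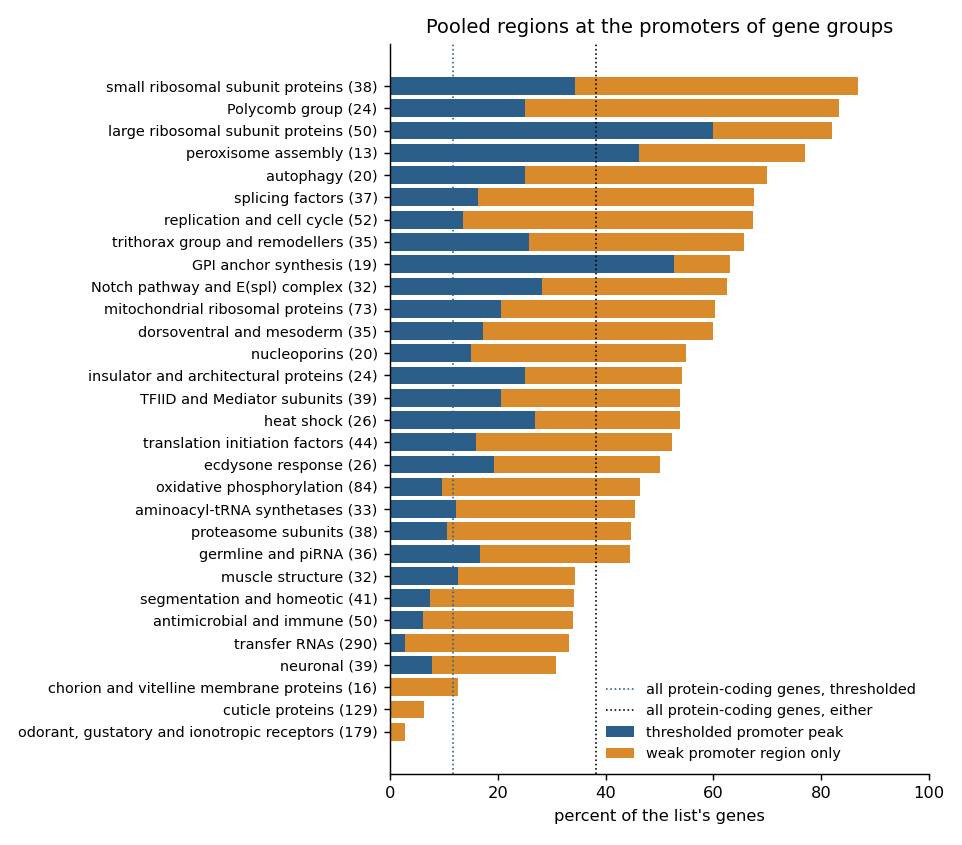
Bars give, for each gene group with its number of genes in brackets, the percent of genes with a thresholded promoter peak and, stacked on it, the percent with a weak promoter region only, with dotted lines for all protein-coding genes (11.6% and 38.3%). The small and large cytoplasmic ribosomal subunits and the Polycomb group reach above 80% in all, and receptor and cuticle genes stay below 7%. Transfer RNA genes are not protein-coding, so the lines do not apply to them, and the histone group, at 0, is not drawn.

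Of the lists of chromatin regulators, the Polycomb group had the highest share with weak regions only and the insulator proteins a share near the background. Polycomb group genes, whose products keep genes silent, had weak regions only at 14 of 24 (58.3%, interval 36.6% to 77.9%) and a thresholded peak at 6, so that 83.3% had either. The counts of weak regions only were 9, 12 and 12 in replicates 1, 2 and 3. The region of Pc, which encodes the chromodomain protein Polycomb, had a signal of 100.3 and ranked 2921, 3423 and 2300, so it was close to the same place in each list. The other named members were pho (98.4), which encodes the DNA-binding protein Pleiohomeotic, mxc (89.9) and Su(z)2 (88.9). Trithorax group and remodeller genes had 14 of 35 (40.0%) and 9 thresholded, with dom, an ATPase gene, and Trl, the GAGA factor gene, both at 100.2. Insulator and architectural protein genes had 7 of 24 (29.2%) and 6 thresholded, so that 54.2% had either, beside 38.3% of all protein-coding genes. Among those with weak regions only were pita (90.9) and CTCF (77.5).

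In the pooled share with weak regions only, most developmental groups were nearer to the background. Dorsoventral and mesoderm genes had weak regions only at 15 of 35 (42.9%) and thresholded peaks at 6, among the former the heart gene tin (101.3), stumps (97.3), Mef2 (91.7) and the FGF receptor gene htl (86.1). The Mef2 region ranked 3253, 2700 and 3731 in replicates 1, 2 and 3, and that of tin 8818, 1147 and 2957, low in replicate 1. Notch pathway genes had 11 of 32 (34.4%) and 9, with E(spl)m2-BFM at 98.7 and Su(H), the DNA-binding factor of the pathway, at 74.5. Segmentation and homeotic genes had 11 of 41 (26.8%) and 3, with the homeotic gene Dfd (96.8) and the pair-rule gene odd (88.9). Neuronal genes had 9 of 39 (23.1%) and 3, with scrt at 78.6, and muscle structure genes 7 of 32 (21.9%) and 4, with how at 84.8. Germline and piRNA genes had 10 of 36 (27.8%) and 6, with the stronger region of pum at 102.8 and tud at 95.8, and ecdysone response genes 8 of 26 (30.8%) and 5, with usp, which encodes the partner of the ecdysone receptor, at 102.5.

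In the share with weak regions only, heat shock and immune genes were near the background, and receptor and cuticle genes below it. Heat shock genes had weak regions only at 7 of 26 (26.9%) and thresholded peaks at 7, with Hsp22 at 85.1. Immune genes had 14 of 50 (28.0%) and 3, with PGRP-LB, a peptidoglycan recognition gene, at 85.0. A region of either kind was at 53.8% of heat shock genes and 34.0% of immune genes, beside 38.3% of all protein-coding genes. No odorant, gustatory or ionotropic receptor gene had a thresholded peak, and 5 of 179 had a weak region (2.79%, interval 0.913% to 6.40%), the strongest being that of Ir60e (67.0). Cuticle protein genes had weak regions at 8 of 129 (6.20%), led by TwdlF (62.6), and 16, 10 and 4 in the replicates' lists. Of 16 chorion and vitelline membrane genes 2 had one (12.5%), Vm26Aa (47.1) and Cp15 (40.3). The interval on that share, 1.55% to 38.3%, holds the 26.6% of all protein-coding genes. The 111 replication-dependent histone genes had no region of either kind. They are near-identical tandem copies, and whether reads could be placed there was not tested. The medians of signal were 48.3 for receptor genes and 43.7 for cuticle genes, below the 57.9 of all genes with weak regions only.

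Transfer RNA genes, read by RNA polymerase III from a promoter inside the gene, had weak regions only at a higher share than all genes of other kinds together, with no test made. Of 290 tRNA genes 88 had a weak region only (30.3%, interval 25.1% to 35.99%) and 8 a thresholded peak (2.76%), beside 13.8% and 3.37% for all genes of other kinds. Counted anew in the lists of replicates 1, 2 and 3, 50, 63 and 104 of the 290 tRNA genes had weak regions only. The mean was 24.9% ± 9.72, so the count differed widely between replicates. Weak regions within 500 bp of a tRNA TSS numbered 71, of which 13 were also near a protein-coding TSS, and 74 of the 88 genes had a region that was not. The region of highest signal, at tRNA:Ile-AAT-1-3 (99.1, ranks 4423, 1119 and 6087), lay closer to a TSS of the protein-coding gene ATP8A, and tRNA:Gly-GCC-1-13 and tRNA:Trp-CCA-2-6 share 1 region with tud (95.8). The region of tRNA:Pro-CGG-2-3 (88.3), whose nearest TSS is that of the tRNA gene, was absent from replicate 1. Clustered tRNA genes share regions, and near-identical copies may share reads.

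At the tagged gene, 1 member lay at the promoter of brwl itself, on 2L with its summit at 9570003, at -268 bp from a TSS. Its signal was 62.7, and its interval overlapped that of a thresholded peak whose summit was 200 bp away, so its replicate ranks of 114, 1 and 75 are not its own. The other members there were 4 summits near TSSs of the neighbouring gene jp, which encodes junctophilin, with signals of 71.3, 68.4, 53.7 and 46.1. The first 2 of these overlapped the same replicate regions, ranked 4061, 3759 and 3816. In all 13 weak regions lay within 10 kb of brwl, and the other 8 were more than 500 bp from any TSS.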

How the data were processed

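Per the README texts deposited beside the lists, the authors called peaks and background regions on dm6 alignments of each replicate and of the pooled replicates, against a control file. Each region carries the authors' signal value and a deposited −log10 q value. No aligner, caller, IDR threshold or version is given in the sources used here. The replicate lists hold 30000, 30000 and 21147 regions, and 25 mitochondrial regions of replicate 3 were left out. The lists on dm3 were not used here.

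TSSs were those of Ensembl release 115 without transposable elements. Ranks follow the signal. Overlaps, shares, motif matches and the exact sign-flip test were computed with Python 3.11.15, numpy 2.4.6, pandas 2.3.3 and scipy 1.17.1, and 8 checks on simulated lists with known answers were all recovered. Motif windows reached 100 bp to each side of the summit. Intervals are exact Clopper-Pearson at 95%. The labels call the replicates biological and say nothing of separate collections, so p-values concern these libraries only. An exact sign-flip p of 0.25 means that the 3 differences share a sign, whatever their spread.

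Members, the 31 gene lists and the 16 motifs were chosen with earlier results of these data known, and the lists were written out once the files were at hand. Of the symbols listed by name, 1 matched no gene. Named are brwl, the 12 highest and 5 lowest members, the 3 lowest thresholded promoter peaks, up to 12 members that every replicate ranked in its first 2239, the 5 genes with most weak summits and up to 4 weak-only genes per list, of which 1 is not reported here. The member at pum with the support of all replicates was added after its values were seen. Sequences were read from the RefSeq copy of dm6, from windows off the arm 2R that overlap no annotated exon.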

Additional observations from a re-analysis of the deposited data

How the results depend on the processing

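The number of weak promoter regions, 4485, became 2727 when only the upper 50% of weak pooled regions by signal was taken, and genes with weak regions only became 2475 in place of 3719. Support by all 3 replicates, 36.8%, was 38.7% with a window of 250 bp, 34.0% with 1000 bp, 32.6% without members within 500 bp of a thresholded summit and 52.04% for the upper 50% by signal. It was 26.96% with an overlap of at least 50%, 13.9% with summits within 100 bp, 3.57% with lists cut at 2239 and 55.2% with whole lists, and 45.0% to 55.4% when 1 replicate was left out and both others had to hold the region. The difference in DRE between strong and weak regions, 1.24 points, reversed to -0.951 when weak meant the 2239 ranks next below. Over its 10 alternatives it ran from -0.951 to 2.20, and the cause was not tested. The divergent share kept its direction over 8 alternatives (5.86 to 14.9 points), the upstream share over 8 (13.3 to 21.6) and GC content over 10 (-5.73 to -2.72). Including TSSs of transposable elements, an alternative chosen after seeing the data, gave 4659 members. No paired analysis was possible because the series has 1 group. Read depth is unknown, so how many weak regions deeper libraries would support was not tested.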
